A study of Mus musculus with 48 samples.

Results

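Selisistat, also called EX-527, is a small molecule inhibitor of SIRT1. The comparison described here sets 3 libraries of STHdhQ111 cells treated with 10 µM selisistat against 3 libraries of the same cells treated with vehicle, which makes 6 of the 48 RNA-Seq libraries of the series. The members were chosen by their labels, and each selisistat library was matched to the vehicle library of the same collection day and collection time, so that there were 3 pairs. All 6 libraries came from murine striatal progenitor cells of strain C57BL/6 that carry the polyglutamine-expanded huntingtin genotype STHdhQ111. The vehicle-treated STHdhQ7 cells, which carry the wild-type repeat, are shown beside them where a level is described. Cells were seeded at 33 °C in medium with 10% serum, and the compound or the vehicle was then applied for 24 hours in serum-free medium, so the controls were deprived of serum as well. The model is a pair of conditionally immortalised cell lines, and the labels do not say whether replicates came from separate cultures. P-values therefore measure the spread between libraries only, which may be technical. In limma that spread was estimated from all 48 libraries, not from the 6 compared ones alone.

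SIRT1 is a deacetylase that uses NAD as a cosubstrate and removes acetyl groups from histones and from transcriptional regulators such as p53, FOXO factors, NF-kB and PGC-1alpha. Nicotinamide, a product of the reaction, inhibits sirtuins, while trichostatin A and butyrate inhibit the zinc-dependent histone deacetylases. In Huntington's disease, a disorder that first harms neurons of the striatum, SIRT1 inhibition has been studied in several models. Inhibiting the enzyme need not change the amount of its own mRNA.

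The values are normalised log2 expression as deposited, and a difference of 1 is read here as a 2-fold change. Their transformation is not given in the sources used here, and it may shrink the differences of genes at low levels. The values hold no read counts, and the depth of each library is unknown. A gene was called when its adjusted p from limma was under 0.05, in a model of all 48 libraries with the collection day as a term. Of 13409 genes tested, 69 were called (0.515%), with 48 higher (0.358%) and 21 lower (0.157%) in selisistat-treated cells, and 2307 reached an unadjusted p under 0.05. A gene was said to move alike when its difference had the same sign in all 3 pairs. This held for 3503 genes (26.1%), of which 1643 were higher (12.3%) and 1860 lower (13.9%). Among the called genes, 54 moved alike (0.403%), 33 of them upward (0.246%) and 21 downward (0.157%). In each of these 54 genes the selisistat and the vehicle libraries did not overlap. Over all genes tested, the groups did not overlap for 15% of them, 6.78% with selisistat higher and 8.27% with selisistat lower. The calls rest on the spread estimated from the other conditions. With collection day and time together as the block, 40 genes were called. Of the 27 called genes described by name, 12 stayed called in that fit, while Cap1, Ccdc9, Crbn, Deaf1, Fam160b2, Kat8, Klf10, Naa35, Paf1, Pax9, Pdgfa, Rhoq, Ring1, Sertad1 and Vash2 did not, with adjusted p-values from 0.0543 to 0.0652 in limma. With only the 6 compared libraries in the fit, limma called 0 genes, with 618 at an unadjusted p under 0.05 when the pairs were a term and 949 when they were not. The calls rest also on single libraries: limma called 0 genes without selisistat replicate 2 (742 at an unadjusted p under 0.05) and 1151 without selisistat replicate 3. The count was 293 without selisistat replicate 1, and 3, 9 and 128 without vehicle replicates 1, 2 and 3. Of the same 27 genes, 0 were still called without selisistat replicate 2. Each kept the sign of its difference, but the genes were chosen for having 1 sign in all 3 pairs. With a minimum mean of 5, which all 27 pass, limma called 6 genes. Outside the RNA classes described further on, 40 called genes moved alike, and 3 of these stayed called. All of the 27 but Malat1 are among these 40. In libraries of whole cultures, fewer cells of a type and less RNA per cell cannot be told apart.

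The 3 pairs differed in size. The SD of the differences over all genes was 0.18 in pair 1, 0.27 in pair 2 and 0.12 in pair 3. Differences beyond 0.5 on the log2 scale were seen for 100 genes in pair 1, 734 in pair 2 and 23 in pair 3. Across the 13409 genes, Pearson's r between the differences was 0.39 for pairs 1 and 2, −0.09 for pairs 1 and 3, and −0.16 for pairs 2 and 3. Genes are not independent replicates, and these values are a description. The plot of pairs against each other shows the same contrast for the RNA classes described further on.

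**Figure D1:**
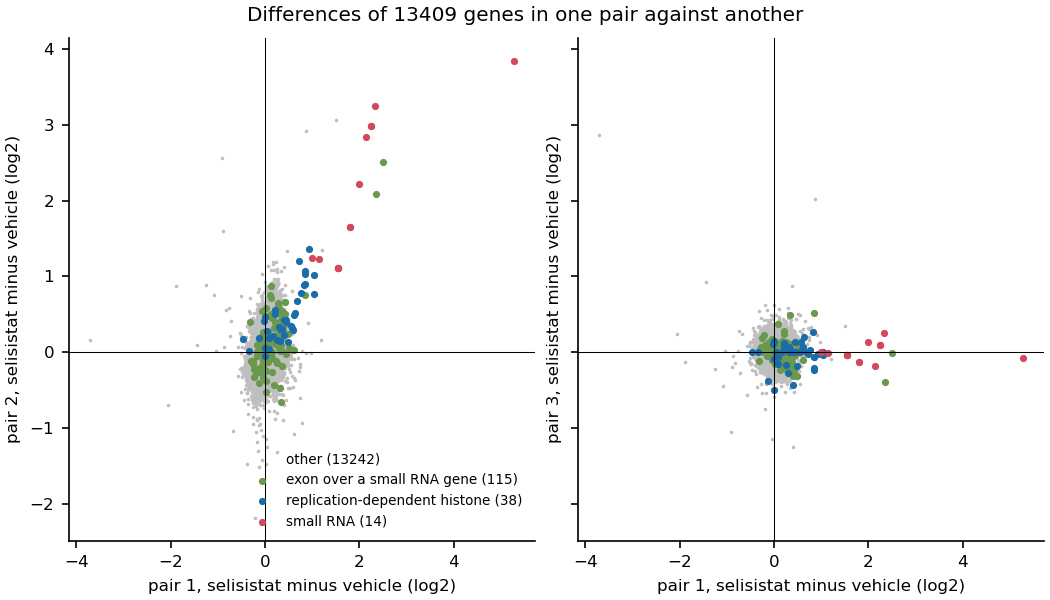
Each point is a gene, placed by its log2 difference between selisistat and vehicle in pair 1 (horizontal axis) and in pair 2 or pair 3 (vertical axes), with colours for the RNA classes and the number of genes in each. The small RNA genes (red) extend up to 5.27 in pair 1 and lie along the diagonal against pair 2, whereas against pair 3 they lie near 0.

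Chromatin and transcription genes were among the risers, with small differences. Kat8 (chr7:127912516-127925837, plus strand, GRCm38) encodes the acetyltransferase that places acetyl groups on lysine 16 of histone H4, a mark that SIRT1 removes. Its levels were 6.20, 6.28 and 6.36 in vehicle replicates 1 to 3 and 6.59, 6.46 and 6.52 in the matched selisistat libraries, so each treated library lay above each control. The rise was 0.24 on the log2 scale (SE 0.057, adjusted p = 0.041, limma). Over the same vehicle libraries Kat8 was also higher with sodium butyrate, by 0.18 (adjusted p = 0.012, limma). With nicotinamide it was higher by 0.21 (adjusted p = 0.016, limma), and with trichostatin A its difference of 0.12 was not called. Ring1, a subunit of Polycomb repressive complex 1, was at 7.13, 7.15 and 7.17 with vehicle and at 7.39, 7.48 and 7.37 with selisistat. The gap between the groups was wider than the range within either, and Ring1 rose by 0.26 (SE 0.065, adjusted p = 0.047, limma). With sodium butyrate Ring1 was higher than the same vehicle by 0.25 (adjusted p = 0.0021, limma). Its differences with nicotinamide and trichostatin A, 0.16 and −0.01, were not called. Paf1, which names a complex that travels with RNA polymerase II, rose by 0.29, from 8.58, 8.43 and 8.49 to 8.69, 9.01 and 8.65. Deaf1, a DNA-binding transcription factor, rose by 0.24, from 7.42, 7.42 and 7.46 to 7.75, 7.72 and 7.56. For both genes the lowest selisistat value was above the highest vehicle value, by 0.071 for Paf1 and 0.104 for Deaf1.

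Snrnp70 and Upf3a, which act in RNA processing, rose as well, most in pair 2. Snrnp70 encodes a protein of the U1 small nuclear ribonucleoprotein, which recognises the 5′ splice site. It was at 10.73, 10.87 and 10.78 with vehicle and at 11.02, 11.47 and 10.92 with selisistat, a rise of 0.34 (SE 0.078, adjusted p = 0.030, limma). Upf3a, of the nonsense-mediated decay machinery, went from 9.19, 9.06 and 9.21 to 9.36, 9.80 and 9.37. In pair 2 the difference of Upf3a was 0.75, against 0.17 and 0.16 in the others. Mief2, a receptor for the mitochondrial fission factor Drp1, had one of the smaller adjusted p-values. It was at 7.42, 7.41 and 7.47 with vehicle and at 7.70, 8.07 and 7.64 with selisistat, a rise of 0.37 (SE 0.073, adjusted p = 0.0087, limma).

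Signalling genes were also among the risers. Pdgfa, a platelet-derived growth factor ligand, rose by 0.31, from 7.38, 7.29 and 7.35 to 7.60, 7.78 and 7.58, and the STHdhQ7 libraries lay higher still, between 8.41 and 8.61. Pdgfa was also higher than the same vehicle with sodium butyrate, by 0.41 (adjusted p = 6.2e-05, limma). The difference was 0.31 with nicotinamide (adjusted p = 0.0074, limma) and 0.01 with trichostatin A, where it was not called. Psen2 encodes a catalytic subunit of gamma-secretase, the protease that cleaves Notch and the amyloid precursor protein. It was at 7.14, 7.07 and 7.11 with vehicle and at 7.41, 7.75 and 7.25 with selisistat. Sertad1, a regulator of CDK4 and E2F activity, rose by 0.42, but its pair differences of 0.21, 0.86 and 0.18 came mostly from pair 2. Fam160b2 was among the most even of all, with pair differences of 0.29, 0.29 and 0.21 and selisistat libraries between 7.33 and 7.40 against 7.04 to 7.13 for the controls. Ccdc9 rose by 0.37 and E130012A19Rik by 0.49, and in both the difference of pair 2 was the highest.

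Among the 15 risers chosen by the naming rule, which needs a mean of at least 5 and one sign in all pairs, those of widest change were Nutf2-ps1 and the nuclear long non-coding RNA Malat1. The deposited table joins Nutf2-ps1 with its copy Nutf2-ps2 under a single identifier, and both resemble the nuclear transport gene Nutf2, so that reads may be shared between them and the value is uncertain. Its levels were 7.01, 6.24 and 5.98 with vehicle and 7.89, 9.16 and 8.0 with selisistat. The other 42 libraries of the series spread from 5.97 to 8.65 for this gene, which covers the vehicle values and 2 of the 3 selisistat values. Malat1 (chr19:5795690-5802672, minus strand, GRCm38) rose by 0.71 (SE 0.14, adjusted p = 0.0098, limma). It went from 13.24, 13.18 and 12.99 to 14.10, 13.93 and 13.51, and sodium butyrate also raised it, by 1.03 over the same vehicle libraries.

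**Figure D2:**
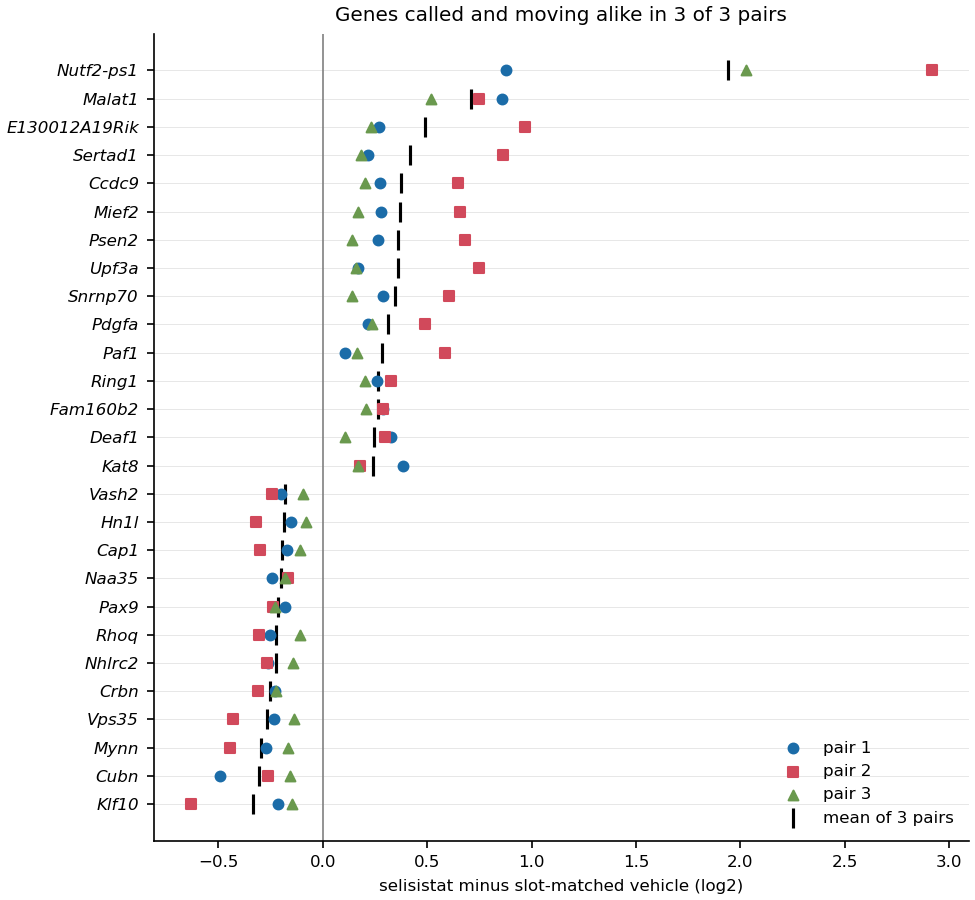
The log2 difference between selisistat and its slot-matched vehicle library is shown for 15 risers and 12 fallers that were called and moved alike, with a symbol for each pair and a bar for the mean of the 3 pairs. The difference was largest in pair 2 for 21 of the 27 genes and smallest in pair 3 for 22 of them.

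Genes of protein turnover and trafficking were among the fallers. Crbn (chr6:106780201-106800077, minus strand) encodes cereblon, the substrate receptor of a cullin-4 ubiquitin ligase. It was at 8.65, 8.64 and 8.69 with vehicle and at 8.42, 8.33 and 8.46 with selisistat, and it fell by 0.25 (SE 0.062, adjusted p = 0.046, limma). The STHdhQ7 libraries, between 8.34 and 8.44, overlapped the selisistat range. Naa35, an auxiliary subunit of the NatC N-terminal acetyltransferase, fell by 0.20, from 9.25, 9.26 and 9.22 to 9.0, 9.09 and 9.04. Vps35, a core subunit of the retromer that returns cargo from endosomes, fell by 0.27 from 11.70, 11.82 and 11.71 to 11.47, 11.39 and 11.57. In all of these genes the controls lay above the treated libraries without overlap.

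Klf10, Pax9 and Mynn, which encode DNA-binding proteins, were among the fallers. Klf10, a Krüppel-like factor induced by TGF-beta, was at 9.06, 9.0 and 9.0 with vehicle and at 8.84, 8.37 and 8.85 with selisistat, a fall of 0.33 (SE 0.078, adjusted p = 0.041, limma). The lowest value, of replicate 2, accounted for most of the spread of the treated group. Pax9, a paired-box developmental factor, fell by 0.21 with pair differences of −0.18, −0.24 and −0.23, and it was lower by far in STHdhQ7 cells, at 7.04 to 7.10. Mynn, a zinc finger protein, fell by 0.29 with pair differences of −0.27, −0.44 and −0.17 (adjusted p = 0.014, limma). The other 6 fallers by the naming rule, chosen for the size of their smallest pair difference, were Cubn, Nhlrc2, Cap1, Rhoq, Vash2 and Hn1l. They fell by 0.18 to 0.30 on the log2 scale. Cubn is an endocytic receptor, Cap1 binds actin monomers, Rhoq is the small GTPase TC10 and Vash2 is a vasohibin. The STHdhQ7 libraries lay above every selisistat library for Rhoq, at 9.70 to 9.80 against 9.08 to 9.26, and below every selisistat library for Vash2, at 8.71 to 8.79 against 8.93 to 8.99.

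**Figure D3:**
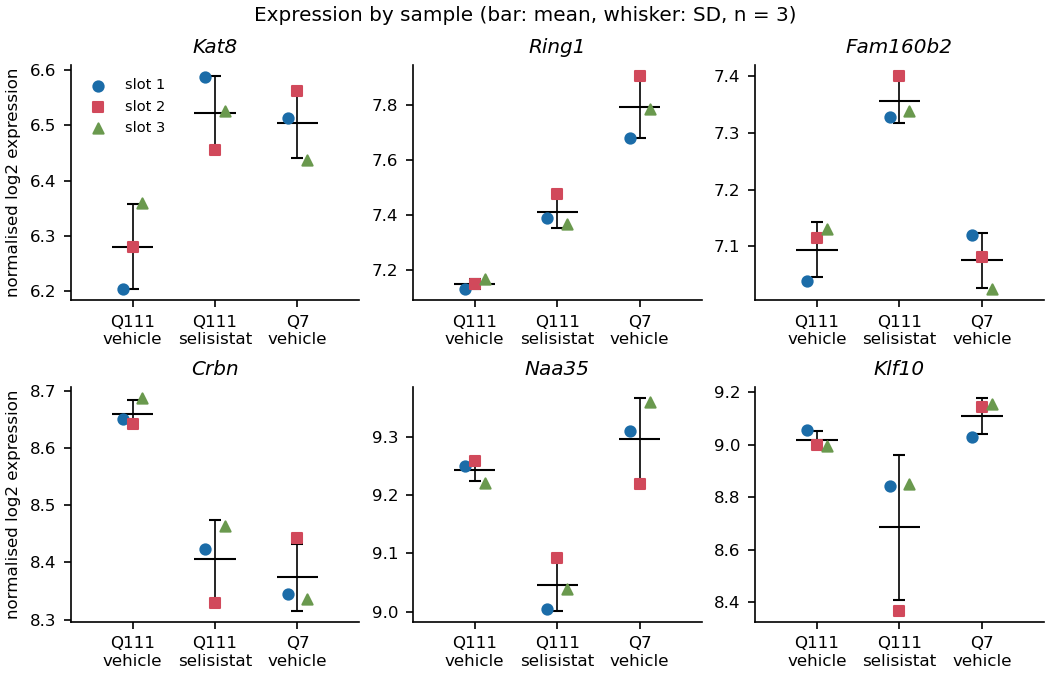
Normalised log2 expression of 3 risers and 3 fallers is shown by sample, with symbols for the shared collection slots, horizontal bars for means and whiskers for the SD (n = 3). The vertical axes do not start at 0. In each panel the 3 selisistat libraries lie apart from the 3 STHdhQ111 vehicle libraries. The STHdhQ7 libraries overlap selisistat for Kat8 and Crbn, overlap vehicle for Fam160b2, Naa35 and Klf10, and lie above both for Ring1.

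The sirtuins themselves were not called. Sirt1 (chr10:63319005-63381704, minus strand) was at 8.95, 9.01 and 8.84 with vehicle and at 8.91, 8.83 and 8.99 with selisistat. Its pair differences were −0.04, −0.18 and 0.15, so the sign turned between pairs, and the groups overlapped (difference of means −0.02, two-sided exact permutation test, p = 0.7). Sirt7, a nucleolar sirtuin, was the member that differed most, at 7.99, 7.92 and 8.07 with vehicle and 8.13, 8.36 and 8.15 with selisistat. It was higher in 3 of 3 pairs by 0.22 on average, without passing the threshold (adjusted p = 0.13, limma; exact permutation p = 0.1, two-sided, which is the lower limit for 3 libraries against 3). The mitochondrial Sirt3 was lower in 3 of 3 pairs by 0.12, and Sirt6 was higher in 3 of 3 by 0.05, each with an adjusted p above 0.05 and an exact permutation p of 0.1. The values of Sirt2, Sirt4 and Sirt5 overlapped between the groups. Nampt, the rate-limiting enzyme of NAD salvage, was lower by 0.05, 0.08 and 0.06 in the 3 pairs, and its groups overlapped too. In the list of sirtuins and NAD metabolism, 0 of 22 tested genes were called, beside 0.515% of all genes tested. Of these, 6 were higher and 5 lower in all pairs, and the median difference of the list was 0.02 against 0.00 for all genes tested.

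No target or partner of SIRT1 on the lists below was called. Over 21 lists of pathway genes, the only member called was Klf10, in the list of immediate-early genes. Of all genes tested 0.515% were called, so a count of 0 does not set a list of this size apart. Among 36 targets of p53, which SIRT1 deacetylates, 0 were called, 11 were higher in all 3 pairs and 3 were lower, with a median difference of 0.06. The examples were small: Sesn2, a stress-induced regulator of mTORC1, was higher by 0.13, 0.14 and 0.18, and the groups did not overlap, but its adjusted p was 0.44. Of 22 FOXO targets, 1 was higher and 5 were lower in all pairs, Txnip, an inhibitor of thioredoxin and of glucose uptake, by 0.10, 0.15 and 0.27. In the NF-kB list, 2 of 23 genes were higher and 2 lower in all pairs. Tnfaip3, a feedback inhibitor of NF-kB signalling, came closest to the threshold, from 7.0, 7.11 and 7.0 with vehicle to 6.79, 6.76 and 6.79 with selisistat (adjusted p = 0.095, limma). Of 34 regulators and partners of SIRT1, 2 were higher and 4 lower in all pairs, and E2f1 differed by 0.08, 0.76 and 0.04. Of 19 genes of mitochondrial biogenesis, 2 were higher in all pairs and 0 lower, among them Ppargc1b, a coactivator related to PGC-1alpha, at differences of 0.07, 0.23 and 0.03.

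No member of the lipid synthesis lists was called, beside 0.515% of all genes tested. In the sterol list, 12 of 25 genes were lower in all 3 pairs and 0 were higher, beside 13.9% and 12.3% of all genes tested. The median difference was −0.07. Sqle, which makes squalene epoxide, was at 11.55, 11.65 and 11.64 with vehicle and at 11.46, 11.53 and 11.52 with selisistat. Its pair differences of −0.09, −0.11 and −0.12 were among the most even, and the groups did not overlap, yet the adjusted p was 0.45. Idi1, the isopentenyl diphosphate isomerase, had a mean difference of −0.14. Of 17 LXR targets and fatty acid synthesis genes, 6 were lower in all pairs and 0 higher, with a median difference of −0.11. Scd1, the stearoyl-CoA desaturase, was at 12.36, 12.24 and 12.25 with vehicle and at 12.14, 11.97 and 12.18 with selisistat (adjusted p = 0.19, limma). Of 34 genes of replication and mitosis, 11 were lower and 0 higher in all pairs. The mitotic kinesin Kif11 differed by −0.29, −0.31 and −0.12 (adjusted p = 0.15, limma). No test over a list was made, and members of a pathway are not replicates.

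The remaining lists had 0 called members apart from Klf10, beside 0.515% of all genes tested. Of 34 immediate-early genes, 7 were higher and 2 lower in all pairs. The list of ATF4 targets and the amino acid response had 7 of 37 members higher and 4 lower in all pairs. Atf3, a stress-induced transcription factor of that list, was at 7.20, 7.06 and 7.24 with vehicle and at 7.40, 7.46 and 7.36 with selisistat (adjusted p = 0.37, limma). Of 34 autophagy and lysosome genes, 3 were higher and 8 lower in all pairs, and the lysosomal membrane protein Lamp2 differed by −0.07, −0.39 and −0.08. Interferon-stimulated genes were higher in all pairs for 6 of 32 and lower for 3, and Xaf1 was higher by 0.19, 0.16 and 0.17, although its groups overlapped. For ER chaperones the counts were 2 higher and 4 lower of 20, and for heat shock chaperones 1 and 1 of 22. The clock list had 1 higher and 3 lower of 21, with Ciart, a repressor of the clock, lower by 0.16, 0.30 and 0.23. The HIF and glycolysis list had 1 higher and 2 lower of 31, the NRF2 list 1 and 4 of 23, the matrix list 1 and 6 of 28, and the Notch list 3 and 3 of 13. Dcn, a matrix proteoglycan, was at 7.33, 7.27 and 7.37 with vehicle and 7.11, 6.80 and 7.15 with selisistat (adjusted p = 0.28, limma). Further list members that moved alike, none of them called, were Slc12a8 (0.15 on average), Ahsa1 (0.10) and Notch3 (0.08), and Xbp1 (−0.08), Bhlhe40 (−0.15), Txnrd1 (−0.16) and Klf4 (−0.19). With the mitochondrial list set aside, the median differences of the lists ran from −0.11 to 0.08.

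RNA that lacks a poly(A) tail moved in 2 of the 3 selisistat libraries. The libraries were made from poly(A)-selected RNA, and small nuclear, small nucleolar and ribozyme RNAs have no such tail. The mean level of 42 small RNA genes was 3.52, 3.43 and 3.79 with vehicle and 5.44, 5.25 and 3.80 with selisistat. Selisistat replicates 1 and 2 were the highest 2 of all 48 libraries, while replicate 3 ranked 12th, and the 42 libraries outside the comparison spread from 3.19 to 4.15. Of the 42 genes, 37 had their highest 2 values in these libraries. Among the 14 small RNA genes that were tested, Rnu2-10, a U2 small nuclear RNA gene, had the largest difference. It was at 3.81, 4.09 and 4.79 with vehicle and 9.08, 7.93 and 4.71 with selisistat. Gm23444, an snRNA gene that is not among the 14, differed more, at 3.85, 3.74 and 4.61 against 9.51, 8.27 and 4.43.

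**Figure D4:**
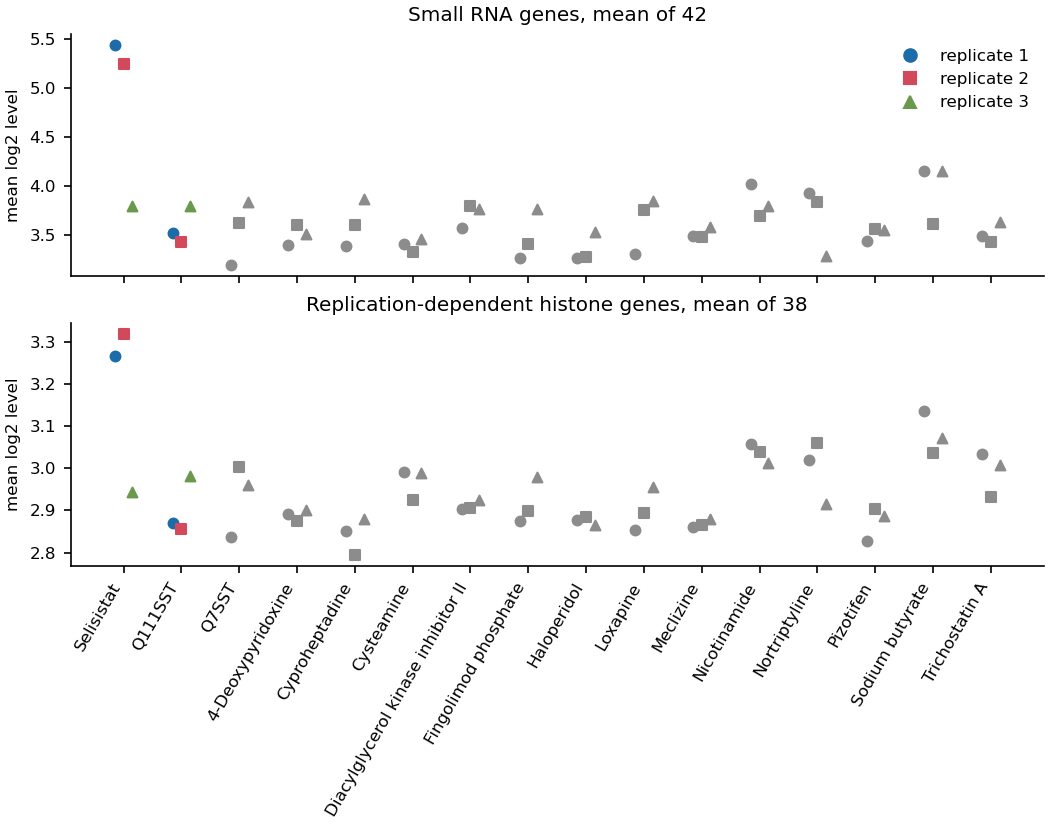
The mean log2 level of 42 small RNA genes (top) and of 38 replication-dependent histone genes (bottom) is shown for all 48 libraries by condition, with symbols for replicates 1 to 3 and colours for selisistat and its vehicle. Selisistat replicates 1 and 2 stand above every other library in both panels, and replicate 3 lies beside its vehicle.

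The spliceosomal RNAs pair with the pre-mRNA through short stretches, which are set in capitals here since U1 and U2 genes were among those called. The sequences are from the GENCODE transcripts of GRCm38 and are written with T, from 5′ to 3′. The capitals of U1 (Rnu1b1) mark the bases that pair with the 5′ splice site, and those of U2 (Rnu2-10) mark the bases that pair with the branch point.
Rnu1b1: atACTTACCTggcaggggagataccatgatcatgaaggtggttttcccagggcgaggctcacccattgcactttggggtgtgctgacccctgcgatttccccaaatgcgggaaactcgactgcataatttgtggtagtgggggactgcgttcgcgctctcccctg
Rnu2-10: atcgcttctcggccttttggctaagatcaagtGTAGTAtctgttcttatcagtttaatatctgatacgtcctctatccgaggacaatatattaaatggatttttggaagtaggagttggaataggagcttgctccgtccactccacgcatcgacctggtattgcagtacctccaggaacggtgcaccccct

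Of the 14 small RNA genes tested, 9 were called (64.3%, beside 0.515% of all genes tested) and all of these were higher. They were Rnu2-10, Rnu1b1 and Rnu1b2, the 4 U3 genes Rnu3b1 to Rnu3b4, and the H/ACA genes Snora73a and Snora73b. Copies share reads: the values of Rnu1b1 and Rnu1b2 are the same in every library shown, as are those of the U3 genes, so 9 calls are fewer independent measurements. Only Snora73a moved alike, with pair 3 at 0.01 against 0.99 and 1.23 in the other pairs. Rpph1, the RNA of ribonuclease P, was not called, and its pair differences were 2.14, 2.84 and −0.18. Rn7sk, the 7SK RNA that holds the elongation factor P-TEFb, differed by 2.32, 3.24 and 0.25, and the 7SL genes Rn7s1 and Rn7s2 by 2.25, 2.99 and 0.10.

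Replication-dependent histone mRNAs, which end in a conserved stem-loop in place of a poly(A) tail, followed the small RNAs. Of 38 tested, 16 were called (42.1%, beside 0.515% of all genes tested), each of them higher, and 12 of the 16 moved alike. The mean of the 38 genes was 2.87, 2.86 and 2.98 with vehicle and 3.27, 3.32 and 2.94 with selisistat. Hist1h4d was at 2.08, 2.13 and 2.10 with vehicle and at 2.91, 3.02 and 2.37 with selisistat, and it rose by 0.66 (SE 0.11, adjusted p = 0.0034, limma). The stem-loops below are from the GENCODE transcripts of 4 called genes, with the arms of the stem in capitals and the loop in lower case.
Hist1h4d: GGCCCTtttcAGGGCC
Hist1h4a: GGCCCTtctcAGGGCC
Hist1h3e: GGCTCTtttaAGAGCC
Hist1h1e: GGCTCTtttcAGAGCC
The histone stem-loop, searched on the transcribed strand only, was found in 13 of the 16 called histone genes, in 15 of the 22 histone genes that were not called, and in 0 of the 41 other called genes. Among all 13400 genes with a transcript, 37 held it (0.276%).

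In 115 of the genes tested an exon runs over an annotated small RNA gene on the same strand, and 3 of them were called (2.61%). The share over all genes tested was 0.515%. The median differences of the 115 genes were 0.07, 0.09 and 0.00 in pairs 1 to 3. Of the 3 called genes, Creb5 was at 5.91, 5.75 and 6.41 with vehicle and at 8.26, 7.84 and 6.02 with selisistat, so pair 3 went the other way. The snRNA gene in its exon, Gm25818 (chr6:53433974-53434137, plus strand, GRCm38), matches 152 of its 164 bases to U1, and begins as U1 does:
Gm25818: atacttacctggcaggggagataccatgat
Tmem38b was at 7.89, 7.80 and 8.14 with vehicle and at 10.39, 10.31 and 8.13 with selisistat, and holds the 5S rRNA gene n-R5s185 (chr4:53860652-53860770, plus strand). Malat1 holds Gm27694 (chr19:5799000-5799085, minus strand), annotated only as a small RNA. That stretch is 86 bases of a transcript of 6983. Reads of 50 bases from such a stretch cannot be assigned between the genes. How much of the level of Creb5, Tmem38b or Malat1 came from such reads was not tested.

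These levels are given because they moved with the calls, and their part in the calls of other genes was not tested. The 41 called genes outside the small RNA, histone and overlapping classes held 20 risers and 21 fallers, and 40 of them moved alike, all but Tmprss11a. With the 3 classes left out of the fit, limma called 0 of the remaining 13242 genes, with 2244 at an unadjusted p under 0.05. The smallest adjusted p was then 0.0501, and 125 genes were under 0.1. Without selisistat replicates 1 and 2, which left 1 treated library, 67 of the 69 genes kept the sign of their difference. In 54 of the 69 the groups did not overlap, which left little room for the sign to change. With the small RNA level as a covariate limma called 0 genes and 65 kept their sign, with 559 genes at an unadjusted p under 0.05.

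Mitochondrial mRNAs other than ND6 had their lowest mean in selisistat replicate 2, while the mitochondrial ribosomal RNAs were higher in replicates 1 and 2 than in replicate 3. Of the 13 protein-coding transcripts 0 were called, beside 0.515% of all genes tested. In all pairs 1 was higher and 5 were lower, beside 12.3% and 13.9% of all genes tested. The median difference was −0.42. For the 12 protein-coding transcripts other than ND6, the mean level was 13.48, 13.50 and 13.56 with vehicle and 13.50, 12.27 and 13.45 with selisistat. For 11 of the 12, replicate 2 was the lowest of all 48 libraries. ND3, a subunit of complex I, was lower in each pair, at 10.10, 9.88 and 9.93 with vehicle and 9.85, 9.03 and 9.39 with selisistat, with an adjusted p of 0.25 in limma. ND6, the complex I subunit encoded on the opposite strand, was higher in all pairs by 0.92, 0.39 and 0.23. The mean of the 2 mitochondrial ribosomal RNAs was 12.80, 12.48 and 12.82 with vehicle and 14.49, 14.15 and 12.92 with selisistat. Lars2, the mitochondrial leucyl-tRNA synthetase, was at 14.51, 13.83 and 14.40 with vehicle and at 16.02, 16.90 and 14.74 with selisistat (adjusted p = 0.076, limma). Like the mitochondrial ribosomal RNAs, it was higher in selisistat replicates 1 and 2 than in replicate 3. The highest value of the 42 libraries outside the comparison was 15.64. Whether these reads came from the synthetase mRNA was not tested.

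Transcript composition also separated the pairs. In the class without small RNA, histone and overlapping genes, Spearman's rho between the pair difference and the GC content of the longest annotated transcript was 0.22 in pair 1, 0.47 in pair 2 and −0.13 in pair 3 (13233 genes). The rho with transcript length was −0.43, −0.37 and 0.35. The genes share their library, so these values are a description. Of the 20 called risers of that class 15 had a GC content above the median of 49.7%, with a median of 53.9%. Of the 21 fallers 2 did, with a median of 46.0%. The longest transcripts had a median of 2416 bases for the risers and 4652 for the fallers, against 3424 for all genes of the class. The part of GC content or length in the calls was not tested.

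**Figure D5:**
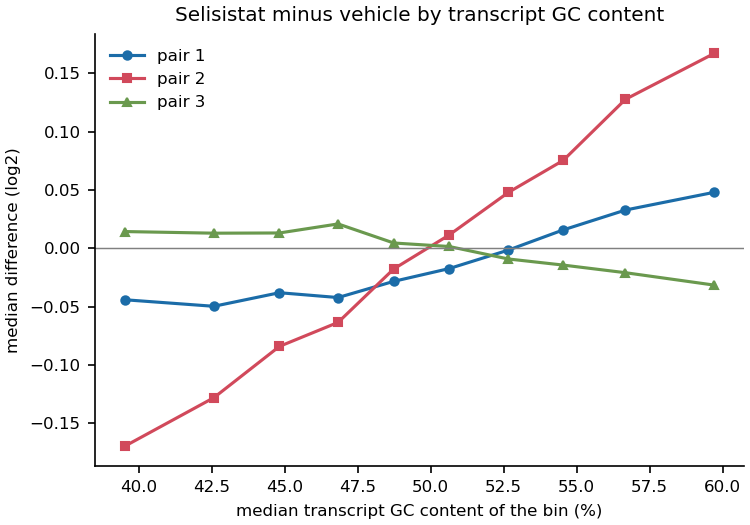
Genes outside the small RNA, histone and overlapping classes were split into 10 bins of equal size by the GC content of their longest transcript (horizontal axis, median of each bin), and the median log2 difference between selisistat and vehicle is drawn for each pair. Pair 2 runs from −0.17 in the lowest bin to 0.17 in the highest, pair 1 from −0.04 to 0.05 and pair 3 from 0.01 to −0.03.

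Trichostatin A, sodium butyrate and nicotinamide were set beside selisistat at the doses of their labels. The doses differ: 10 nM for trichostatin A, 1 mM for sodium butyrate and 0.5 nM for nicotinamide. Whether nicotinamide inhibited sirtuins in these cells at its labelled dose, a low one, was not tested. The libraries of these compounds shared the collection days with selisistat but not its collection times. Between selisistat and trichostatin A 2779 genes were called (20.7%), against sodium butyrate 4624 (34.5%) and against nicotinamide 598 (4.46%). The named genes were chosen for their selisistat values, which biases a comparison of these values with another compound, so their differences are a description. Over the 15 named risers, the median difference between selisistat and the other compound was 0.28 for trichostatin A, 0.25 for butyrate and 0.16 for nicotinamide. Against the same vehicle libraries, the median difference of these risers was 0.04 with trichostatin A, 0.10 with butyrate and 0.21 with nicotinamide. Over the 12 named fallers, the median against vehicle was −0.13 with trichostatin A, −0.11 with butyrate and −0.13 with nicotinamide. All contrasts with vehicle share the same vehicle libraries, so an unusual vehicle value would move them alike. Whether it did was not tested. Sirt1, which was not chosen by its values, was at a mean of 8.91 with selisistat, 8.93 with vehicle and 8.68 with butyrate. Its difference of 0.23 between selisistat and butyrate was called (adjusted p = 0.0019, limma), as was that of −0.25 between butyrate and vehicle (adjusted p = 0.00064, limma). Without selisistat replicate 2, the calls fell to 1365 against trichostatin A and to 304 against nicotinamide.

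Markers of striatal neurons were at uneven levels in these cells. Of 10 such markers in the table, Drd1, Adora2a, Gad1, Gad2, Bcl11b and Dlx5 had a mean under 1, from about −2.18 for Drd1 to 0.75 at most for Dlx5. Ppp1r1b was between 1.88 and 2.00, while Foxp1, Dlx1 and Dlx2 were above 5. Levels of the 8 neural progenitor markers were uneven too. Sox9, Vim and Hes1 were above 5 in all 6 libraries, Nes lay between 4.72 and 5.43, and Sox2 between 4.74 and 5.09. Msi1 was between 4.19 and 4.33, Pax6 between 2.73 and 3.26, and Fabp7 between 0.65 and 0.72. Of 8 mesenchymal markers 4 exceeded 5, namely Col1a1, Col1a2, Col3a1 and Pdgfrb. The summed level of the progenitor markers was 15.4 to 15.5 with vehicle and 15.4 with selisistat, and that of the mesenchymal markers was 15.2 to 15.4 and 15.2 to 15.7. Vim alone, at 15.4 to 15.5 with vehicle and 15.4 with selisistat, made up most of the progenitor sum. Ptprc, a blood cell marker, was between 10.3 and 10.7 in all 6 libraries, and the microglial marker Tmem119 between 7.28 and 7.51, while Aif1, P2ry12 and Cx3cr1 lay between −2.18 and −1.81. Of the other lists, Map2, Slc1a3, Pdgfra and Pecam1 were above 5 in all 6 libraries and Slc1a2 was between 4.79 and 5.21, while Rbfox3, Snap25, Dcx, Syt1 and Gfap were under 1. None of the markers tested was called, beside 0.515% of all genes tested, so that count does not set the markers apart.

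Of genes with a mean of at least 5, the 6 whose pair differences had the widest range are given here. Gm8290, a pseudogene, went from 9.05, 5.30 and 4.45 with vehicle to 5.34, 5.46 and 7.32 with selisistat, which gave pair differences of −3.71, 0.16 and 2.87. Olfr1219 differed by −0.91, 2.56 and −1.05. The other 4 were the small RNA genes Rpph1, Rn7sk, Rn7s1 and Rn7s2 described above, which were higher by 2.14 to 3.24 in pairs 1 and 2 and between −0.18 and 0.25 in pair 3. Rnu2-10, with a lower mean, had a wider range than Olfr1219.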

How the data were processed

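RNA-Seq of 48 libraries of striatal progenitor cells was analysed, 3 in each of 16 conditions. The authors selected poly(A) RNA, sequenced single-end reads of 50 bases, trimmed them with Trimmomatic 0.36, aligned them to the GRCm38.p5 transcriptome and quantified them with RSEM. The table deposited by the authors holds normalised log2 values, whose transformation is not given in the sources used here, so the depth of each library is unknown, precision was taken from the replicates, and no pseudocount was added. The strand setting of the counting is not given either.

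Genes with a symbol and a mean of at least 1 were tested (13409 of 27281 in the table; 18178 have a symbol). A linear model of condition and collection day was fitted with limma 3.58.1 in R 4.3.3, with a trend of the variance on abundance and 30 residual degrees of freedom. P-values were two-sided, adjusted by the Benjamini-Hochberg method over all tested genes, and called under 0.05. Day is the block that pairs selisistat with vehicle: the labels give same-numbered libraries a shared day and time. Their deviations from the group means correlated at 0.0011, −0.32 and −0.48. With the vehicle libraries of other numbers the mean correlations were 0.026, 0.13 and 0.26, so same-numbered libraries were not the more alike.

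Named genes are the sirtuins and Nampt, the 15 risers and 12 fallers with the largest smallest-pair difference among called genes that moved alike (mean of at least 5), of each list the called members and the alike member with the largest smallest-pair difference, and the 6 genes of widest pair range. Malat1 and 26 others follow this rule, and Hist1h4d, Creb5, Tmem38b, Lars2 and the other genes outside it were named after their values were seen. The members, lists and tests were chosen with earlier results of these data known. Small RNA, histone and overlapping classes, GC content, length, positions and sequences come from GENCODE vM21 (GRCm38); RNA classes were defined after the data were seen. The fit was tested on simulated data. Alternatives were other blocks, filters, weights, centring and left-out libraries. Python 3.11.15 and matplotlib 3.10.9 made the figures.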

Additional observations from a re-analysis of the deposited data

How the results depend on the processing

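No called gene among the 27 named risers and fallers changed sign under the alternatives run. These genes were chosen for having 1 sign in all 3 pairs, so leaving out a pair could not change it. A left-out library had little room to change it either. The 69 calls became 103 with no replicate block, which left the named ones called, and 69 with the replicate number as the block. They became 40 with collection day and time together as the block (12 of the 27 named genes kept). The count was 72 with centred libraries, 101 with library weights and 70 without the variance trend. It was 68 with no minimum mean, 6 with a minimum mean of 5 and 116 with genes that lack a symbol. All 27 named genes pass the minimum of 5. All of them but Malat1 are among the 40 called genes outside the RNA classes that moved alike. Of these 40, 3 stayed called there. The count was 0 in each of 5 fits in limma: only the 6 compared libraries with the pairs as a term (618 at an unadjusted p under 0.05), the same without it (949), the small RNA level as a covariate (559), the 3 RNA classes left out (2244) and selisistat replicates 1 and 2 left out (278). The last 3 were chosen after seeing the data. With a library or a pair left out, the count ran from 0 to 1616. It was 0 without selisistat replicate 2, 0 without pair 1 (2023 at an unadjusted p under 0.05) and 0 without pair 2 (710), 3 without vehicle replicate 1, 9 without vehicle replicate 2, 128 without vehicle replicate 3, 293 without selisistat replicate 1, 1151 without selisistat replicate 3 and 1616 without pair 3. Genes moving alike fell from 3503 to 411 when each pair difference had to reach 0.1. Against trichostatin A the calls ran from 1365 to 3078 with a selisistat library left out, and against nicotinamide from 304 to 806. The cause of these changes was not tested.

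Sign changes were seen for genes that were not called. With the small RNA level as a covariate, the difference became 1.28 for Gm8290, −0.072 for Notch3, −0.42 for Olfr1219, −0.82 for Rn7s1 and Rn7s2, −0.66 for Rn7sk, −0.81 for Rpph1, 0.082 for Sirt1 and −0.066 for Sirt5. With library weights it became 0.37 for Gm8290 and −0.036 for Sirt5. Without selisistat replicates 1 and 2 it became 1.16 for Gm8290, −0.91 for Olfr1219, 0.058 for Sirt1 and −0.074 for Sirt5. With a library or a pair left out, it ran from −1.78 to 1.51 for Gm8290, from −0.98 to 0.83 for Olfr1219, from −0.11 to 0.055 for Sirt1 and from −0.084 to 0.059 for Sirt5.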
